A study of Mus musculus with 12 samples.

Results

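The genes described here are 10 immediate early genes of neuronal activity: *Fos*, *Fosb*, *Junb*, *Egr1*, *Egr2*, *Arc*, *Npas4*, *Nr4a1*, *Bdnf* and *Dusp1*. They were taken by gene symbol from a table of read counts for 55397 mouse genes, and all 10 were among the 18264 genes with enough counts to be tested. The counts came from primary cultures of *Myt1l* (+/−) pups (HET in the labels) and *Myt1l* (+/+) pups (WT), where each genotype had 3 animals and each animal was sequenced as 2 libraries. The question was whether levels of activity-dependent transcripts differ between the genotypes. The study recorded electrical firing in primary cultures of the same genotypes, grown on electrode plates coated with PEI and laminin.

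The *Myt1l* (+/−) animals (numbers 505, 506 and 508) carried a germline CRISPR/Cas9 deletion of 7 bp in exon 6 of 1 *Myt1l* allele, which shifts the reading frame. The *Myt1l* (+/+) animals (510, 511 and 513) carried no such deletion. All cultures came from P0 pups labelled as male C57BL/6J, were plated on Matrigel, and received Ara-C, which kills dividing cells, 3 days after plating. The tissue label is cortex, whereas the study prepared cultures from both cortex and hippocampus. Neither the labels nor the methods name a stimulus or a silencing drug for these cultures. The methods describe a medium with serum, part of which was replaced regularly. The time from the last replacement to harvest is not given. The labels do not say what separates both libraries of an animal, nor whether each animal gave more than 1 culture.

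Immediate early genes are transcribed within minutes of synaptic or calcium signalling without new protein synthesis, largely through CREB, SRF with its ternary complex partners, and MEF2 factors already sitting on their promoters and enhancers. Their products are mostly transcription factors (the AP-1 subunits FOS, FOSB and JUNB, the zinc finger proteins EGR1 and EGR2, the nuclear receptor NR4A1, the bHLH-PAS factor NPAS4), along with effectors such as the synaptic protein ARC, the neurotrophin BDNF and the MAP kinase phosphatase DUSP1. *Npas4* responds mainly to calcium entry in neurons, while *Fos*, *Junb*, *Egr1*, *Nr4a1* and *Dusp1* also respond to growth factors and stress in glia and fibroblasts.

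To show the sequence through which such signals are known to act, RefSeq promoter windows (GRCm38.p6, 300 bases around a transcript start) were searched on both strands for the CREB-binding core TGACG. The table gave 18 windows for 8 of the 10 members (*Egr1* and *Arc* were not matched). The windows of *Fos*, *Junb* and *Npas4* are printed because the AP-1 partners *Fos* and *Junb* had differences of opposite sign between the genotypes and *Npas4* is the most neuron-restricted of the set. Capitals mark TGACG, or CGTCA where the core lies on the other strand, and each window reads 5′ to 3′ on the strand of its gene (*Fos* chr12:85473640-85473939, plus; *Junb* chr8:84978699-84978998, minus; *Npas4* chr19:4989922-4990221, minus).
Fos: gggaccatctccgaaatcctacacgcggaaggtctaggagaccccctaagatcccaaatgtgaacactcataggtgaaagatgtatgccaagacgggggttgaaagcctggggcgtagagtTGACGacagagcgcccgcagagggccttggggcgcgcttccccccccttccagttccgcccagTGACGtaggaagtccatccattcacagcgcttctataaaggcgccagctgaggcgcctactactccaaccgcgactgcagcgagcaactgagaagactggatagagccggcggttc
Junb: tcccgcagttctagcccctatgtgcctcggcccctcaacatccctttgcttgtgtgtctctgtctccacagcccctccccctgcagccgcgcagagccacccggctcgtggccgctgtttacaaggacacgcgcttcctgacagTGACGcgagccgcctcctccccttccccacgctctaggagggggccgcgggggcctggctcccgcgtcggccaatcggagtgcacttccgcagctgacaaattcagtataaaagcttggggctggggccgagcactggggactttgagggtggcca
Npas4: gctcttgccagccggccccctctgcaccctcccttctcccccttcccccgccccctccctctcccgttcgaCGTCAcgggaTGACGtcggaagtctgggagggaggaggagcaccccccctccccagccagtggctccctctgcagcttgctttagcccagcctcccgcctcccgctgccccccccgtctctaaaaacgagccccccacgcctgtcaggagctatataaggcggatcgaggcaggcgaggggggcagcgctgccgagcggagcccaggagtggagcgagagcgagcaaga
The core started 129 and 66 bases before the *Fos* start, 106 bases before the *Junb* start, and 179 and 169 bases before the *Npas4* start. It occurred in 10 of the 18 member windows and in at least 1 window of all 8 genes, and in 20.8% of the 32851 windows in the table. That share counts windows, not genes, and a gene with several windows has more chances of a match. The *Egr2* windows with the core overlap each other and hold the same 2 sites. The full palindrome TGACGTCA, which contains the core, was found for *Dusp1* alone among the 8 (1.79% of all windows). The AP-1 sequence TGANTCA was in 1 of the 7 *Bdnf* windows (7.81% of all windows). The CArG box, to which SRF binds, was in 4 of the 5 *Egr2* windows, most of which overlap each other (1.63% of all windows). Sites outside the windows, and any at *Egr1* or *Arc*, were not searched. AAAGTT, the core sequence of MYT1-family binding sites, was in 1 window each of *Nr4a1* and *Bdnf* and in 14.1% of all windows.

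The summed libraries of an animal held a median of 41709398 counts in (+/−) animals (range 40642699 to 43745258) and of 45389946 counts in (+/+) animals (range 43129302 to 52833161). *Myt1l* itself stood at 89.0, 146 and 165 CPM (counts scaled to a common library size) in (+/−) animals 505, 506 and 508, against 119, 147 and 109 CPM in (+/+) animals 510, 511 and 513. The labels state that the mutant transcript is not degraded, so these counts do not check the genotypes. Animal 511, labelled male, had 18805 counts of *Xist*, against 5 to 10 in the other 5 animals. In (+/−) animal 505 the summed CPM of 15 pan-neuronal markers was 3276, against 5681 and 6237 in the other (+/−) animals and 6278 to 7328 in (+/+) animals. Several values are therefore also given without 505.

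All 10 members were expressed in these cultures, for which no stimulus is named, over a wide range of levels. Per kilobase of exon, in (+/−) cultures *Fos* was at 120 ± 15.1 CPM per kb (SD, n = 3), *Junb* at 82.3 ± 9.06 and *Egr1* at 52.8 ± 6.90, and the ranges of these 3 genes did not overlap. *Dusp1* (43.7), *Arc* (35.9), *Npas4* (27.3), *Nr4a1* (23.2) and *Bdnf* (14.2) lay between 10 and 50 CPM per kb, and *Fosb* (4.13) and *Egr2* (2.42) were lowest. In (+/+) cultures the order began with *Junb* at 105 ± 18.7 and *Fos* at 91.8 ± 4.78 CPM per kb, whose ranges overlapped, and *Fos* lay clear of *Egr1* at 40.1 ± 2.42. *Egr1*, *Dusp1* (35.3), *Npas4* (34.0), *Arc* (31.7) and *Nr4a1* (23.7) each overlapped the next in that order in (+/+) cultures, whereas *Bdnf* (11.7), *Fosb* (4.79) and *Egr2* (1.78) each lay below the one before. The level of *Junb* in (+/+) cultures was at percentile 97.8 of the tested genes, that of *Fos* at 97.4 and that of *Egr2* at 33.8. Exons of all annotated transcripts were counted in the length, so the values of *Bdnf*, a gene with many alternative 5′ exons, are at most lower bounds for the sum of its isoforms.

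No member passed the test for a difference between the genotypes, and neither did any other gene. With edgeR's quasi-likelihood test and Benjamini-Hochberg adjustment over all genes, 0 of 10 members were called at an adjusted p under 0.1, where 0% of the 18264 genes were called in either direction. At an unadjusted p under 0.05, 3 members stood out (22.3% of all genes in either direction): 2 were higher in (+/−) cultures (*Fos* and *Egr1*; 13.2% of all genes) and 1 was lower (*Junb*; 9.11% of all genes). In *Fos* and *Egr1* every (+/−) animal lay above every (+/+) animal, as in 15.5% of all genes, and in 0 members every (+/−) animal lay below (13.5% of all genes). The 2 members without overlap, of 10, are near the background of 29.1% in either direction. No member had an absolute log2 fold change of 0.5 or more, against 19.6% of all genes. The log2 fold change of (+/−) over (+/+) was positive for 6 members and negative for 4 (50.4% of all genes were positive), with a median of 0.23 over the members and 0.003 over all genes. The median over the members was −0.037 without (+/−) animal 508 and 0.084 without (+/+) animal 510. DESeq2, tried as an alternative, called *Fos* (adjusted p = 0.0479) and *Egr1* (adjusted p = 0.0486) higher, where it called 7.54% of all genes higher and 4.3% lower, while limma voom called 0 members.

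**Figure D1:**
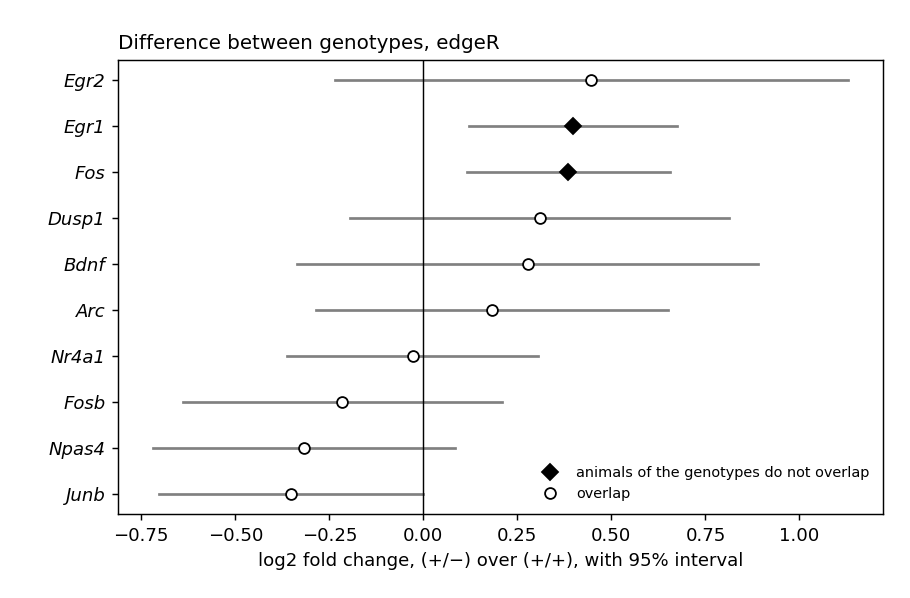
Log2 fold change of the 10 members, (+/−) over (+/+), with 95% intervals from edgeR's quasi-likelihood fit on 3 animals per genotype; filled diamonds mark genes whose genotypes did not overlap. *Fos* (0.39) and *Egr1* (0.40) are the filled diamonds, and the intervals of 7 members include 0.

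Among the AP-1 genes, *Fos* and *Junb* had differences of opposite sign. *Fos* (ENSMUSG00000021250.13, chr12:85473890-85477273 of mm10), whose protein needs a JUN partner to bind DNA, stood at 323, 259 and 265 CPM in (+/−) animals 505, 506 and 508, against 205, 227 and 216 CPM in (+/+) animals 510, 511 and 513. Animal 505 was the highest, and the genotypes did not overlap. The log2 fold change was 0.39 ± 0.12 (SE; edgeR's quasi-likelihood adjusted p = 0.168, Benjamini-Hochberg), or 0.28 without 505 and 0.42 without 511, and the exact permutation test gave p = 0.1, the smallest that 3 against 3 allows. *Junb* (ENSMUSG00000052837.7, chr8:84976910-84978718), a JUN-family subunit that is a weaker activator than JUN, stood at 143, 167 and 136 CPM in (+/−) animals, against 215, 204 and 152 CPM in (+/+) animals. Animal 513 of the (+/+) group lay within the (+/−) range, so the groups overlapped. Its log2 fold change was −0.35 ± 0.15 (SE; edgeR adjusted p = 0.223). Without (+/+) animal 513 it was −0.50, with an edgeR adjusted p of 0.0561, in a fit that called 12.3% of 18638 genes higher and 5.95% lower.

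*Fosb* (ENSMUSG00000003545.3, chr7:19302696-19310051) encodes a FOS relative and, by alternative splicing, the truncated and long-lived ΔFOSB, and the gene counts cannot tell these apart. It stood at 25.6, 19.0 and 32.7 CPM in (+/−) animals, against 31.4, 30.8 and 27.6 CPM in (+/+) animals. The (+/−) animals held both the highest and the lowest value, and the log2 fold change was −0.22 ± 0.18 (SE; edgeR adjusted p = 0.466), or −0.43 without 508 and −0.048 without 506. The ratio of *Fos* to *Junb* CPM, a measure chosen after the values were seen, was 2.25, 1.54 and 1.94 in (+/−) animals 505, 506 and 508, against 0.953, 1.11 and 1.42 in (+/+) animals 510, 511 and 513. Every (+/−) animal lay above every (+/+) animal in this ratio, and being chosen for that it received no test.

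The EGR members had positive differences, clear of overlap for *Egr1* alone. *Egr1* (ENSMUSG00000038418.7, chr18:34859823-34864984), a zinc finger factor needed for the persistence of synaptic potentiation, stood at 271, 229 and 211 CPM in (+/−) animals 505, 506 and 508, against 168, 189 and 182 CPM in (+/+) animals 510, 511 and 513. Animal 505 was again the highest. Its log2 fold change was 0.40 ± 0.12 (SE; edgeR adjusted p = 0.168), or 0.29 without 505 and 0.43 without 511 (exact permutation test, p = 0.1). *Egr2* (ENSMUSG00000037868.15, chr10:67535475-67542188), also known as a regulator of hindbrain segments and of myelination by Schwann cells, was the lowest member, at 8.42, 7.41 and 8.88 CPM in (+/−) animals and 3.40, 6.39 and 8.38 CPM in (+/+) animals. The (+/+) animals spread widely, from 177 counts in animal 510 to 358 in animal 513, and the groups overlapped. The log2 fold change of *Egr2* was 0.45 ± 0.29 (SE; edgeR adjusted p = 0.361), or 0.15 without 510 and 0.74 without 513.

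**Figure D2:**
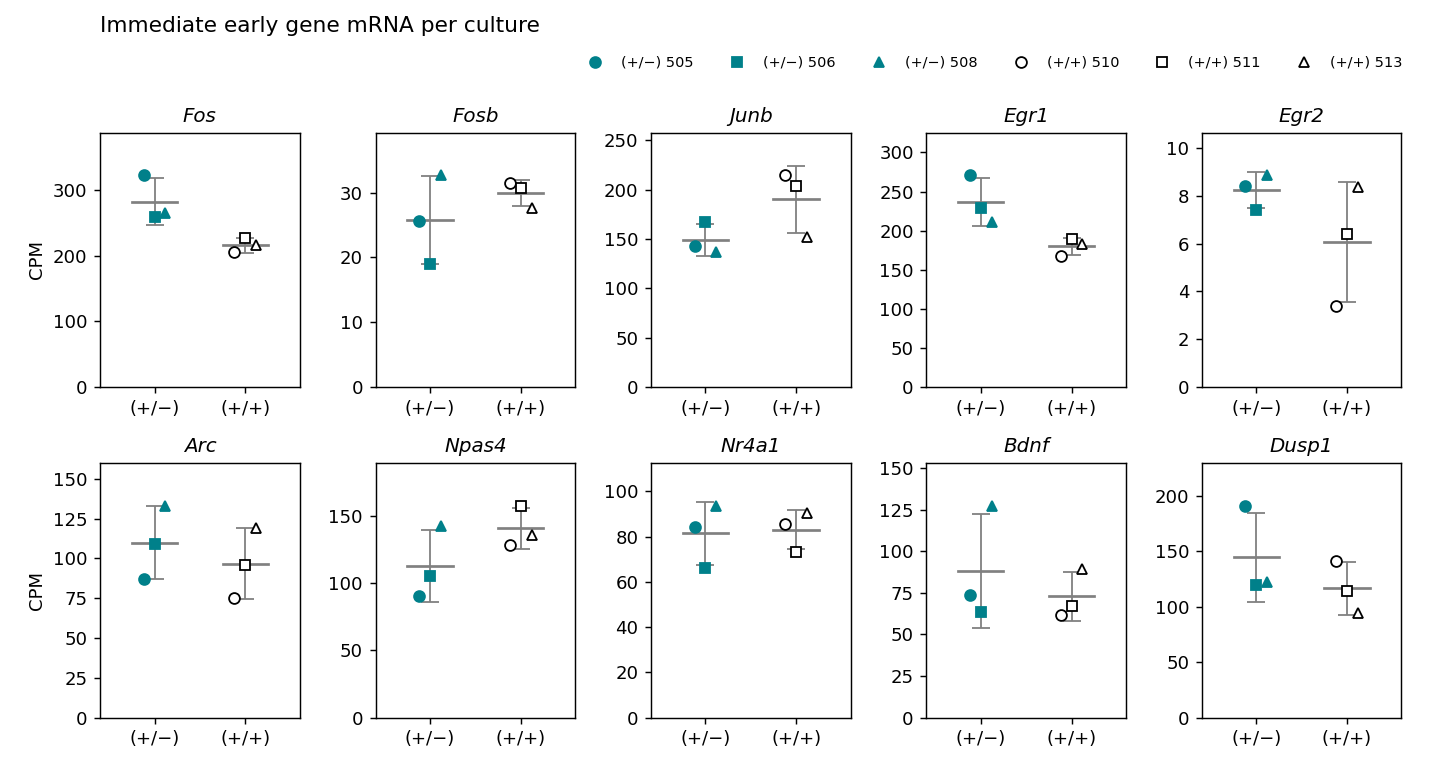
CPM of each member by animal, (+/−) left and (+/+) right in each panel, with a bar at the mean; each point is 1 animal (2 libraries summed), n = 3 per genotype. The groups are separate for *Fos* and *Egr1* and overlap for the other 8 genes.

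*Nr4a1*, *Dusp1*, *Arc*, *Npas4* and *Bdnf* overlapped between the genotypes. *Nr4a1* (ENSMUSG00000023034.7, chr15:101254269-101274795), an orphan nuclear receptor, stood at 84.4, 66.0 and 93.7 CPM in (+/−) animals, against 85.4, 73.4 and 90.3 CPM in (+/+) animals. It had the smallest difference of the 10, with a log2 fold change of −0.029 and a 95% interval of −0.36 to 0.30, and was −0.15 without 508 and 0.090 without 506. *Dusp1* (ENSMUSG00000024190.7, chr17:26505590-26562128), which dephosphorylates p38, JNK and ERK, stood at 191, 120 and 123 CPM in (+/−) animals, against 142, 114 and 94.1 CPM in (+/+) animals. Only animal 505 lay above the (+/+) range, and the log2 fold change of 0.31 (edgeR adjusted p = 0.386) was 0.056 without it. The annotated span of *Dusp1* overlaps *Ergic1* on the opposite strand, which had 5902 to 8685 counts per animal. Library preparation marked strand by the dUTP protocol, but whether counting used it is not stated, so reads of both genes may be mixed.

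*Arc* (ENSMUSG00000022602.14, chr15:74669083-74672570), whose product removes AMPA receptors from synapses and assembles into capsid-like particles, stood at 87.3, 109 and 133 CPM in (+/−) animals, against 75.3, 95.7 and 119 CPM in (+/+) animals. The spread within each genotype exceeded the difference between them, and the log2 fold change was 0.18 ± 0.20 (SE; edgeR adjusted p = 0.571). It was 0.015 without (+/−) animal 508, 0.022 without (+/+) animal 510, 0.32 without 505 and 0.35 without (+/+) animal 513. *Npas4* (ENSMUSG00000045903.9, chr19:4984355-4990316), which controls inhibitory synapses formed onto excitatory neurons, stood at 90.3, 106 and 143 CPM in (+/−) animals, against 129, 158 and 136 CPM in (+/+) animals. Animals 505 and 506 lay below the (+/+) range and 508 within it. The log2 fold change was −0.32 ± 0.17 (SE; edgeR adjusted p = 0.288), or −0.18 without 505 and −0.53 without 508. *Bdnf* (ENSMUSG00000048482.14, chr2:109674700-109727007), the ligand of TrkB, stood at 74.0, 63.4 and 127 CPM in (+/−) animals, against 61.7, 67.3 and 89.3 CPM in (+/+) animals. Animal 508 was highest, and the log2 fold change of 0.28 ± 0.26 (SE; edgeR adjusted p = 0.513) was −0.090 without it. The 95% intervals of *Arc* (−0.28 to 0.65), *Npas4* (−0.72 to 0.08) and *Bdnf* (−0.33 to 0.89) each include 0.

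Between animals of a genotype, 9 members in (+/−) and 7 in (+/+) cultures varied more than the median gene. The coefficient of variation ran from 9.09% (*Egr2*) to 38.9% (*Bdnf*) in (+/−) animals, against a median of 9.21% for genes at 10 CPM or more, and from 5.20% (*Fos*) to 41.4% (*Egr2*) in (+/+) animals, against 8.25%. Both libraries of an animal differed by at most 0.12 on the log2 scale for 9 members and by up to 0.37 for *Egr2*, less than the range between animals of a genotype for each of these 9. Of the 10 members, (+/−) animal 508 held the highest value for 5 and 505 for 3, while (+/+) animal 510 held the lowest value for 5. *Fos*, *Egr1* and *Dusp1* peaked in 505, whereas *Arc* and *Bdnf* peaked in 508, so the members did not rank the (+/−) animals alike.

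Markers of several cell types differed between the genotypes in the same libraries, with 0 called by edgeR in each list. Of the pan-neuronal markers, 15 of 15 had a negative log2 fold change (median −0.46). In 6 of them every (+/−) animal lay below, as in 13.5% of all genes. Summed excitatory markers were 1426, 2516 and 2424 CPM in (+/−) animals 505, 506 and 508, against 2687, 2894 and 2623 CPM in (+/+) animals 510, 511 and 513. The 10 microglia markers were all positive (summed 144 to 273 CPM in (+/−) animals and 102 to 136 CPM in (+/+) animals), as were the 7 choroid plexus and ependymal markers (1090 to 2160 CPM and 499 to 695 CPM). Every (+/−) animal lay above for 5 microglia markers and for all 7 choroid plexus and ependymal markers, as in 15.5% of all genes. Summed fibroblast markers were 1573 CPM in 505, against 411 and 497 CPM in the other (+/−) animals and 185 to 832 CPM in (+/+) animals, and summed astrocyte markers spanned 11526 to 12674 CPM in (+/−) animals and 8309 to 12678 CPM in (+/+) animals. None of the listed markers was at 0 in every animal. Their part in the values of *Fos*, *Egr1* and the other members was not tested, and in bulk RNA fewer cells of a type and less RNA per cell cannot be told apart.

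Set against the summed pan-neuronal markers in place of all RNA, the mean log2 ratio of all 10 members was higher in (+/−) cultures with animal 505 included, and that of 7 without it. *Fos* was higher by 0.84 and *Egr1* by 0.86 on the log2 scale, and *Arc* by 0.65, each with every (+/−) animal above every (+/+) animal (exact permutation test, p = 0.1, the smallest possible). The shares of all genes that were higher or without overlap on this scale were not computed. The summed markers were lower in (+/−) animals (3276 to 6237 CPM) than in (+/+) animals (6278 to 7328 CPM). Within an animal, a lower sum raises the log2 ratio of every gene by the same amount. The 10 higher ratios share this shift, and so do the separations and their p-values. For *Arc* the log2 ratios, relative to the (+/+) mean, were 0.91, 0.44 and 0.60 in (+/−) animals 505, 506 and 508, against −0.31, −0.11 and 0.43 in (+/+) animals 510, 511 and 513. Without 505 the differences were 0.46 for *Fos*, 0.47 for *Egr1* and 0.52 for *Arc*. *Junb* (0.12), *Npas4* (0.13), *Fosb* (0.22) and *Nr4a1* (0.43) were positive on this scale and negative by CPM. Without 505, *Junb* (−0.14), *Npas4* (−0.014) and *Fosb* (−0.083) were negative on this scale too, *Nr4a1* was at 0.10 and *Dusp1* at 0.25, against 0.76 for *Dusp1* with it. With all animals, the 7 members other than *Fos*, *Egr1* and *Arc* overlapped. *Npas4*, at 0.40, −0.17 and 0.14 in (+/−) animals 505, 506 and 508 against −0.10, 0.05 and 0.05 in (+/+) animals 510, 511 and 513, overlapped between the genotypes. The summed markers under this ratio were lowest in animal 505, which was the highest animal on it for all 10 members.

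**Figure D3:**
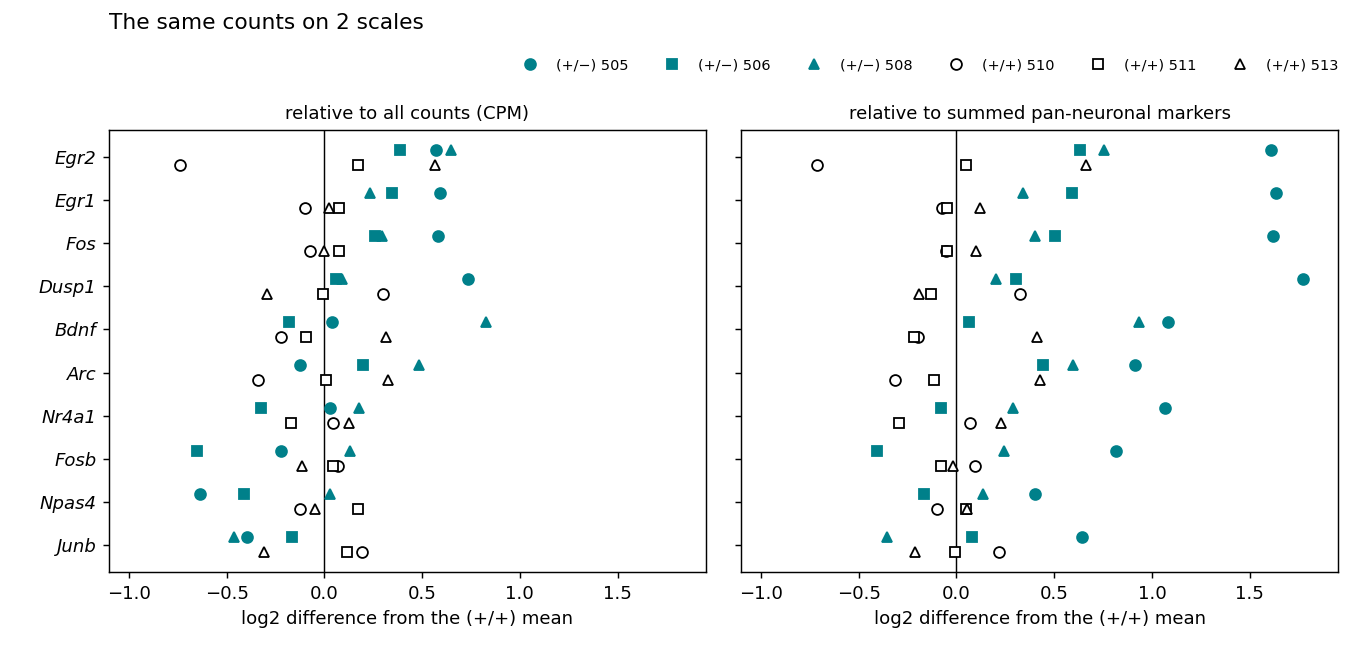
Log2 difference of each animal from the (+/+) mean for the 10 members, by CPM (left) and relative to summed pan-neuronal markers (right). In each gene's row (+/−) animals are drawn above (+/+) animals. On the neuronal scale *Fos*, *Egr1* and *Arc* separate the genotypes, with animal 505 at 1.62 for *Fos* and 1.63 for *Egr1*.

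The other genes of the same families gave 0 calls by edgeR at an adjusted p under 0.1 in every list, beside the 0% over all genes. In the AP-1 family 2 of 9 tested genes had a positive log2 fold change and 7 a negative one (median −0.19). Besides the members these included *Maff*, a small MAF protein, with a log2 fold change of −0.61 (edgeR adjusted p = 0.229), *Jun* (log2 fold change −0.10), *Jund* (−0.13), *Fosl2* (−0.19) and the stress-induced *Atf3* (0.20). *Fosl1*, a FOS relative of dividing and wounded cells, was the only AP-1 gene with every (+/−) animal below (−0.42 ± 0.19 SE; edgeR adjusted p = 0.239). Of the other EGR genes, *Egr3* (−0.31) and *Egr4* (−0.28) had the opposite sign to *Egr1* and *Egr2*, and their corepressors *Nab1* (0.10) and *Nab2* (−0.11) differed little. *Nr4a2*, a dopaminergic-lineage receptor, had a log2 fold change of 0.43 with wide spread (19.0 ± 11.5 CPM in (+/−) and 14.2 ± 4.75 CPM in (+/+) cultures), and *Nr4a3* one of −0.034.

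Of 10 MAP kinase phosphatases, 5 were positive and 5 negative (median −0.041). The ERK-selective *Dusp6* was above in every (+/−) animal, at 93.9 ± 6.65 CPM in (+/−) and 83.8 ± 4.53 CPM in (+/+) cultures, and *Dusp7* was below in every one (log2 fold change −0.22). *Dusp2* (−0.55), *Dusp9* (−0.49), *Dusp8* (−0.38), *Dusp10* (−0.085), *Dusp4* (0.0031), *Dusp5* (0.065) and *Dusp16* (0.17) overlapped. Of 30 other rapid response genes, some of them in the families above, 14 were positive and 16 negative (median −0.019). *Ier2* lay above in every (+/−) animal (37.7 ± 3.29 CPM in (+/−) and 30.1 ± 2.18 CPM in (+/+) cultures; edgeR adjusted p = 0.169), *Arl4d* below (12.8 ± 1.23 and 21.4 ± 6.57 CPM; edgeR adjusted p = 0.167), and *Gadd45b*, a DNA demethylation and stress factor, had a log2 fold change of −0.70.

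Among 18 delayed response genes 6 were positive and 12 negative (median −0.066). *Rgs2*, which limits G-protein signalling, had a log2 fold change of 0.43, while *Plk2* (−0.31), a kinase of synaptic scaling, lay below in every (+/−) animal and the vesicle protein gene *Syt4* had −0.47. Among 21 upstream kinases and transcription factors 16 were negative (median −0.22), and 7 lay below in every (+/−) animal, as did 13.5% of all genes. *Mef2c* stood at 81.4 ± 7.71 CPM in (+/−) and 143 ± 29.8 CPM in (+/+) cultures (log2 fold change −0.81 ± 0.16 SE; edgeR adjusted p = 0.166), with *Mef2d* (−0.41) and *Mef2a* (−0.39) also below, and *Crem*, which encodes activators and the repressor ICER, at 0.42. Of the 6 partners of BDNF and NPAS4, 5 were positive (median 0.085), among them the TrkB gene *Ntrk2* (0.23) and the protease gene *Furin* (0.26). None of these lists was tested as a set, and each shares the animals and cell type shifts given above.

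**Figure D4:**
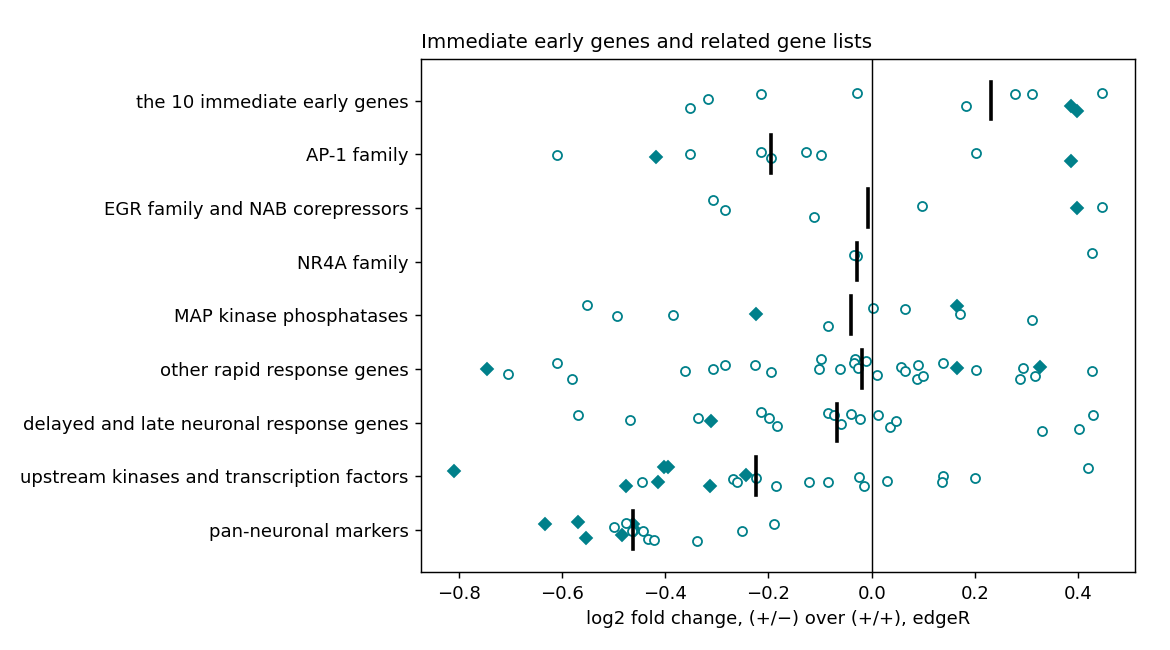
Log2 fold change, (+/−) over (+/+), of each gene in the families, response lists and pan-neuronal markers. A bar lies at each list's median, and filled diamonds mark genes whose genotypes did not overlap. The pan-neuronal markers have the lowest median (−0.46), followed by the upstream list (−0.22), and the members have the highest (0.23).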

How the data were processed

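Strand-marking (dUTP) libraries were mapped to mm10 with STAR by the authors, who deposited raw counts per gene for 12 libraries; the sources used here name no counting tool. Deposited normalised counts and a DESeq2 table of fold changes and p-values, which holds the study's own comparison, were not used. The 2 libraries of an animal were summed, leaving 3 animals per genotype as replicates. Genes were filtered (filterByExpr), normalised (TMM) and tested with edgeR 4.0.16 (R 4.3.3; glmQLFit, glmQLFTest; Benjamini-Hochberg; adjusted p under 0.1), which was tested on simulated data; limma 3.58.1 and DESeq2 1.42.0 were alternatives. CPM used TMM library sizes, and exon lengths were those given with the deposited counts. Permutation tests were exact and two-sided. The members and lists were chosen with earlier results of these data known. Genes named were all members, other family genes, and up to 4 genes of smallest p per other list; the *Fos* to *Junb* ratio was added later. P-values measure only the spread between these animals.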

Additional observations from a re-analysis of the deposited data

How the results depend on the processing

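Of 170 member values under other settings, 155 kept their direction and side of the threshold, 11 became called, 0 lost a call and 4 changed sign. The number of members called, 0 in the analysis as reported, was 2 with DESeq2, and 4 with all 12 libraries as separate samples, both without and with library number as a replicate block, in fits that treat libraries of 1 animal as independent and called 48.9% and 45.7% of all genes. It ran from 0 to 1 when 1 animal was left out. The number of members without overlap ran from 2 to 4 (4 without 508 or without 513). The share of all genes without overlap was not computed for these settings, and with fewer animals separation is easier to reach. The median log2 fold change ran from −0.037 (without 508) to 0.29 (without 506), with 0.084 without 510. *Nr4a1* was 0.039 with library 1 alone and ran from −0.15 to 0.090 on leaving out 1 animal, and *Bdnf* from −0.090 to 0.46; the cause was not tested. With *Xist*-defined sex as a covariate 0 members were called. Only animal 511 counted as female, so this fit nearly equals leaving 511 out (*Fos* at 0.42 in both) and cannot separate sex from that animal. The exact test of 3 against 3 cannot go below p = 0.1.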

Other observations

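By centred log2 CPM over the 6 animals, the genes nearest to *Fos* among 15105 compared were *Dnajc12* (root-mean-square distance 0.039), *Gm28305* (0.049) and *Man2b1* (0.053), where the SD of *Fos* itself was 0.22. Those nearest to *Npas4* (SD 0.27) were *Armcx4* (0.058), *Btbd8* (0.059) and *Omg* (0.063). For *Bdnf* (SD 0.36) no gene came as close: *Recql4* (0.11), *Mest* (0.14) and *Sstr2* (0.15) were the nearest. The members themselves were left out of this comparison, and over 6 animals the distances are a description.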
